A study of Homo sapiens with 6 samples.

Results

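The regions described here are the islands enriched for NFATc2 on chromosomes 16, 17, 19, 20 and 22, which are known as gene-dense human chromosomes. They were taken as every entry of the deposited island list on these 5 chromosomes, which gave 1739 of 32760 islands, and were set against the 4707 islands on the gene-poor chromosomes 4, 13 and 18. The list came from chromatin immunoprecipitation coupled with sequencing (ChIP-seq) in untreated THP-1 cells, a human monocytic acute myeloid leukaemia line that carries the MLL-AF9 fusion. There were 3 NFATc2 IP libraries, made with the rabbit antibody NFAT1 (D43B1) XP, and 3 Input DNA libraries of chromatin DNA that was not precipitated. Cells of both groups had been crosslinked in 1% formaldehyde for 10 min, and 125 mM glycine stopped the reaction over 5 min. A single island list was deposited for these libraries, so each island has 1 value and no spread between replicates, and a single cell line was used.

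NFATc2, also called NFAT1, is a transcription factor with a Rel-like DNA-binding domain. Calcium signalling activates the phosphatase calcineurin, which dephosphorylates NFATc2 and lets it enter the nucleus, where it binds DNA alone or with partners such as AP-1. It is best known for cytokine gene control in T cells and is also expressed in myeloid cells. Gene-dense chromosomes carry more promoters and more open, early-replicating chromatin per length than gene-poor ones.

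By RefSeq protein-coding genes on GRCh38, used only as totals per chromosome, chromosome 19 held 24.8 genes per Mb and chromosome 17 held 14. Chromosomes 16, 22 and 20 held 9.5, 8.9 and 8.3 genes per Mb. The gene-poor chromosomes 4, 18 and 13 held 4.0, 3.4 and 3.0, the lowest values of the autosomes. The label therefore fits all 5 chromosomes against the 3 gene-poor ones, but the set is not simply the 5 highest, since chromosome 11 held 9.6 genes per Mb and chromosome 1 held 8.3.

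Gene-dense chromosomes held few islands for their length. They made up 11.3% of the chromosome length but 5.31% of the islands, whereas the gene-poor chromosomes made up 12.5% of the length and 14.4% of the islands. Islands covered 9.49 Mb, or 2.73%, of the gene-dense chromosomes and 25.5 Mb, or 6.63%, of the gene-poor ones. The 5 gene-dense chromosomes differed widely among themselves. Chromosome 20 had 688 islands, or 10.7 per Mb, close to the 10.6 per Mb over all chromosomes. Chromosome 17 had 652, or 7.83 per Mb. Chromosome 19, the most gene-dense, had 226 islands, or 3.86 per Mb, chromosome 16 had 146, or 1.62 per Mb, and chromosome 22 had 27, or 0.531 per Mb. The gene-poor chromosomes were as uneven, with 20.4 islands per Mb on chromosome 13, 12.1 on chromosome 4 and 0.846 on chromosome 18. Taken over chromosomes, the gene-dense mean was 4.90 ± 4.27 islands per Mb (SD, n = 5) and the gene-poor mean 11.1 ± 9.83 (SD, n = 3). The ranges overlapped, and the difference of -6.23 was within the spread between chromosomes (two-sided exact permutation test, p = 0.25; 0.63 after Benjamini-Hochberg adjustment over 8 measures).

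With 5 against 3 chromosomes, the smallest p this exact test can give is 0.0357, so no single measure could pass the adjustment unless several reached that limit together. Chromosomes of 1 cell line are not replicates of the experiment, and the test covers only the spread between these chromosomes.

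**Figure D1:**
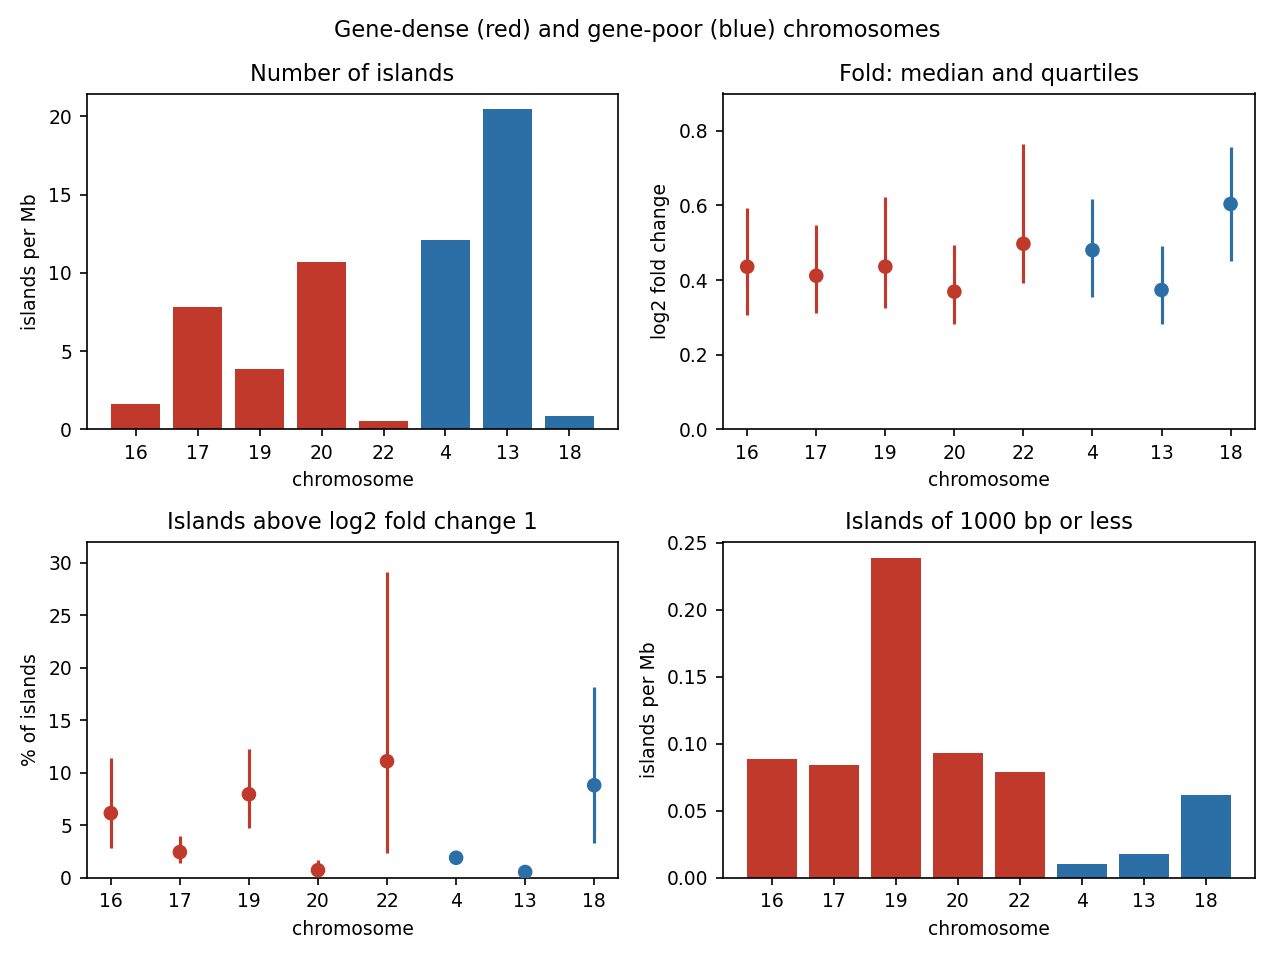
Measures of the islands on the gene-dense chromosomes 16, 17, 19, 20 and 22 (red) and the gene-poor chromosomes 4, 13 and 18 (blue): islands per Mb (bars), median log2 fold change (points, lines from lower to upper quartile), percent of islands above a log2 fold change of 1 (points, lines are 95% exact binomial intervals) and islands of 1000 bp or less per Mb (bars). The binomial intervals take islands as independent. The groups overlap in the first 3 panels, while in the fourth the gene-dense bars, from 0.0787 to 0.239 per Mb, all stand above the gene-poor bars, which reach 0.0622.

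The typical island had a similar size on both kinds of chromosome. Its median width was 4600 bp on the gene-dense chromosomes together and 4800 bp on the gene-poor ones. By chromosome, the median width was 4600 bp on 16 and 17, 4400 bp on 19, 4800 bp on 20 and 2800 bp on 22, against 4800 bp on 4, 5000 bp on 13 and 4700 bp on 18. The shortest median belonged to chromosome 22, which had the fewest islands. The mean of the chromosome medians differed by -593 bp, gene-dense minus gene-poor (4240 ± 817 bp, n = 5, against 4833 ± 153 bp, n = 3), which did not pass the two-sided exact permutation test (p = 0.107; 0.63 adjusted).

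The fold of an island, the authors' log2 ratio of IP reads over scaled input reads, was also similar. Its median was 0.40 over all gene-dense islands, 0.42 over the gene-poor ones and 0.39 over the whole list. The highest gene-dense median was 0.50 on chromosome 22, followed by 0.44 on 16 and on 19, 0.41 on 17 and 0.37 on 20. The gene-poor medians overlapped this range and reached above it, with 0.60 on chromosome 18, 0.48 on 4 and 0.37 on 13. The chromosome means were 0.43 ± 0.05 (SD, n = 5) and 0.49 ± 0.12 (SD, n = 3), a difference of -0.06 that was within the spread (two-sided exact permutation test, p = 0.393; 0.63 adjusted).

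Read numbers were derived for each island from its fold and p, and were whole for all but 2 of the gene-dense islands, chr16:46385801-46456600 and chr19:27731801-27741600, which enter no read count unless stated. An island held a median of 142 IP and 186 input reads on the gene-dense chromosomes, and 144 IP and 189 input reads on the gene-poor ones. By chromosome, the median number of IP reads was 131 on 16, 142 on 17, 132 on 19, 146.5 on 20 and 120 on 22, with 16, 19 and 22 below the gene-poor range of 132.5 to 153 (two-sided exact permutation test, p = 0.393; 0.63 adjusted). The input density was more even on the gene-dense side. Its chromosome medians lay between 39.6 and 43.0 input reads per kb, whereas those of the gene-poor chromosomes ran from 33.8 on 18 to 43.1 on 13, and the means of 41.2 ± 1.22 (n = 5) and 38.1 ± 4.70 (n = 3) did not differ beyond the spread (two-sided exact permutation test, p = 0.25; 0.63 adjusted). When the reads of all islands with known read numbers were pooled, the log2 fold change was 0.36 on the gene-dense chromosomes (95% counting interval 0.35 to 0.36) and 0.40 on the gene-poor ones (0.39 to 0.40). Here and below such intervals cover counting error in the pooled reads only, since reads without molecular identifiers are not independent molecules and the libraries cannot be separated.

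Narrow islands were more frequent on the gene-dense than on the gene-poor chromosomes. Of 1739 gene-dense islands, 39 were 1000 bp or less (2.24%, 95% exact binomial interval 1.60 to 3.05), against 9 of 4707 gene-poor islands (0.191%, 0.0875 to 0.363) and 0.491% of the whole list. Binomial intervals take each island as independent, which islands of 1 chromosome are not. They do not measure the spread between chromosomes. They numbered 14 on chromosome 19, 8 on 16, 7 on 17, 6 on 20 and 4 on 22, compared with 5 on 18 and 2 each on 4 and 13. By chromosome the share among islands did not pass the test (two-sided exact permutation test, p = 0.571; 0.69 adjusted). Chromosome 18, with 68 islands in all, had a share of 7.35%. Per length, the groups did not overlap. Chromosome 19 had 0.239 narrow islands per Mb, the highest value of the 22 autosomes, chromosome 20 had 0.0931, 16 had 0.0886, 17 had 0.0841 and 22 had 0.0787. The gene-poor values were 0.0622 on 18, 0.0175 on 13 and 0.0105 on 4. Over all chromosomes together it was 0.0521, so chromosome 18 also lay above that value. Chromosome 11, which is in neither group, had 0.104 per Mb, the second highest of the autosomes. Chromosome Y, with 1.1 genes per Mb, had 0.140, and X, with 5.4 genes per Mb, had 0.0897. The frequency is thus not particular to the 5 chromosomes. Of the remaining chromosomes outside both groups the highest was 9, with 0.0723 per Mb. The difference of the means, 0.117 ± 0.0685 against 0.0301 ± 0.0281, reached the smallest p the design allows (two-sided exact permutation test, p = 0.0357), which was 0.179 after adjustment over 10 measures. This measure was chosen after the values were seen, and a link between narrow islands and gene density was already known from these data, so it is no independent evidence. With a limit of 600 bp the difference of 0.0866 per Mb became 0.0430 (exact permutation p = 0.214).

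Peaks, meaning islands with a log2 fold change above 1, were a larger share of the islands on the gene-dense chromosomes as a whole. There were 51 of 1739 (2.93%, 95% exact binomial interval 2.19 to 3.84), against 63 of 4707 on the gene-poor chromosomes (1.34%, 1.03 to 1.71) and 1.58% of the whole list. Here too the intervals leave out the spread between chromosomes. Chromosome 19 held 18 of its 226 islands above this fold, or 7.97%, and chromosome 17 held 16 of 652, or 2.45%. Chromosome 16 had 9 peaks (6.16% of its islands), chromosome 20 had 5 (0.727%) and chromosome 22 had 3 (11.1%). On the gene-poor side, chromosome 4 had 44 (1.91%), chromosome 13 had 13 (0.556%) and chromosome 18 had 6 (8.82%). In both groups the chromosome with most islands per Mb had the smallest share and that with fewest the largest. Compared by chromosome, the means of 5.68 ± 4.18% (n = 5) and 3.76 ± 4.43% (n = 3) were within the spread (two-sided exact permutation test, p = 0.607; 0.69 adjusted).

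Per length, the frequency of peaks overlapped between the groups. Chromosome 19 had 0.307 peaks per Mb, 17 had 0.192, 16 had 0.0996, 20 had 0.0776 and 22 had 0.0590, and the gene-poor values of 0.231 on 4, 0.114 on 13 and 0.0747 on 18 fell among them. The means were 0.147 ± 0.103 (n = 5) and 0.140 ± 0.0816 (n = 3), with p = 1.0 in the two-sided exact permutation test. At a log2 fold change above 1.5 there were 9 gene-dense islands (0.518%) and 3 gene-poor ones (0.0637%), against 0.177% of the list.

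The peaks of the gene-dense chromosomes were narrower as a set. Of the 51 gene-dense peaks, 28 were 1000 bp or less (54.9%), against 4 of 63 gene-poor peaks (6.35%) and 17.6% of all peaks in the list. By chromosome this share was 80.0% on 20, 66.7% on 22, 55.6% on 16 and on 19 and 43.8% on 17, and 33.3% on 18, 7.69% on 13 and 2.27% on 4, so that the groups did not overlap. The means were 60.3 ± 13.7% (n = 5) and 14.4 ± 16.6% (n = 3), again at the smallest p the design allows (two-sided exact permutation test, p = 0.0357; 0.179 adjusted over 10 measures), and this measure too was chosen after the values were seen. With a limit of 600 bp the difference of 45.9 percentage points became 14.96 (exact permutation p = 0.321). The shares rest on 3 to 44 peaks per chromosome. Outside both groups, chromosome 11, with 9.6 genes per Mb, had the highest share of the autosomes, at 27.6%. Chromosome 1, with 8.3 genes per Mb, had 18.5%. Both lay within the gene-poor range, as did Y. Chromosome X, with 5.4 genes per Mb, had 85.7% of 7 peaks, above every gene-dense value. Over all chromosomes the share thus did not simply follow gene density. Among islands wider than 1000 bp, the pooled share above a log2 fold change of 1 was close to the background of 1.31% on both sides, with 23 of 1700 gene-dense islands (1.35%) and 59 of 4698 gene-poor ones (1.26%). By chromosome it varied widely, from 0.147% on 20 through 1.40% on 17, 2.90% on 16 and 3.77% on 19 to 4.35% on 22, and from 0.514% on 13 through 1.87% on 4 to 6.35% on 18.

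**Figure D2:**
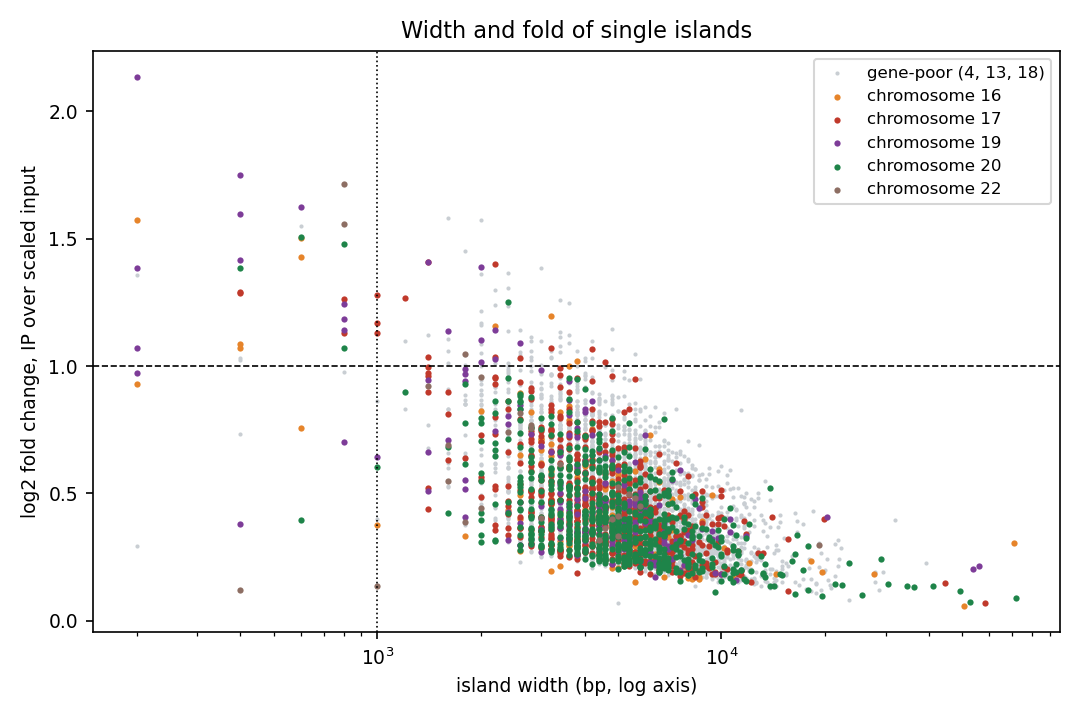
Width in bp (log axis) and log2 fold change over scaled input for each island on the gene-dense chromosomes (coloured by chromosome) and the gene-poor chromosomes (grey), with dashed and dotted lines at a log2 fold change of 1 and a width of 1000 bp. The upper left field, narrow islands above a log2 fold change of 1, holds 28 gene-dense and 4 gene-poor islands, and no gene-dense island over 5000 bp is above 1.

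Fold fell with width on both kinds of chromosome. Over the 1739 gene-dense islands Spearman's rho between width and log2 fold change was -0.55, and over the 4707 gene-poor islands it was -0.48, with all points sharing the same pooled libraries. The median log2 fold change on the gene-dense chromosomes was 1.19 in islands up to 1000 bp, 0.57 from there to 3000 bp, 0.43 to 5000 bp, 0.33 to 10000 bp and 0.20 in wider ones. In the same classes the gene-poor medians were 0.97, 0.62, 0.46, 0.36 and 0.25, so the gene-dense median was the higher one only in the narrowest class. An island of few reads can pass the caller's FDR of 0.05 only at a high fold, and the part of this in the relation was not tested.

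The 51 gene-dense peaks had between 37 and 454 IP reads, with a median of 99, and between 15 and 304 input reads, with a median of 81. Their log2 fold changes ran from 1.00 to 2.13 with a median of 1.20, and all 51 counting intervals were above 0. The lower bound of the interval was itself above 1 in 10 of the 51, and in 3 of the 63 gene-poor peaks. The gene-dense island just inside the threshold had a log2 fold change of 1.002 and that just outside had 0.9963. The deposited list still holds any peaks in blacklisted regions, which the authors took out later.

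**Figure D3:**
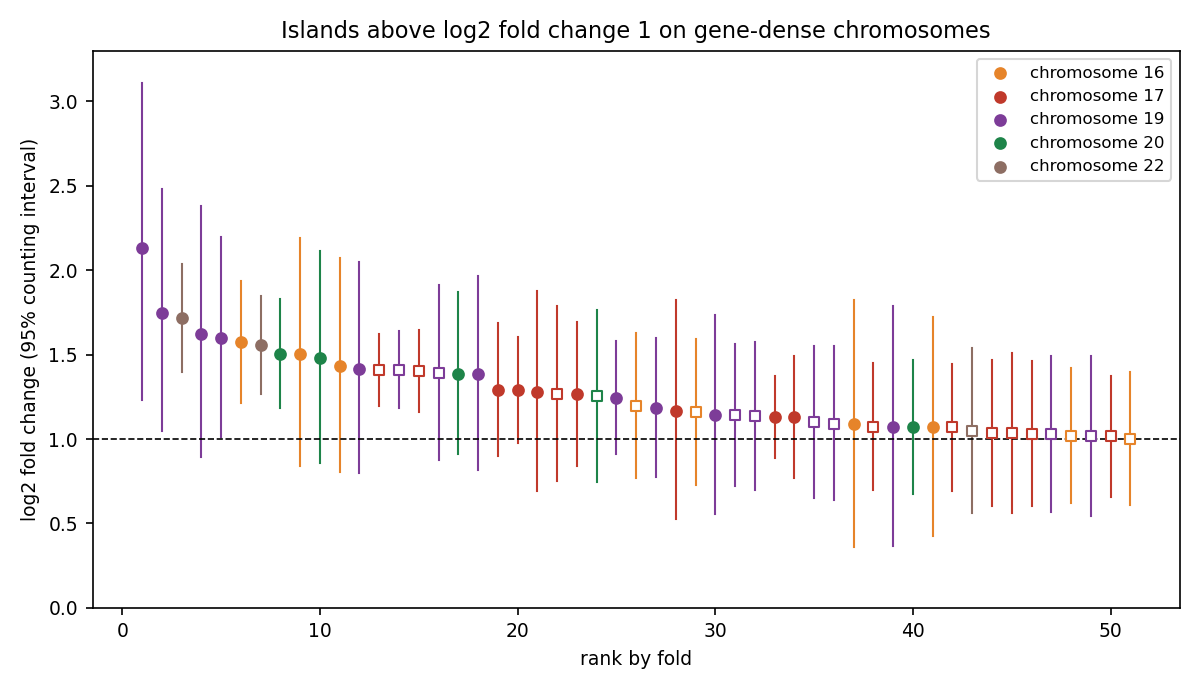
Log2 fold change of the 51 gene-dense peaks in order of fold, coloured by chromosome, with filled circles for peaks of 1000 bp or less, open squares for wider ones, and lines for the 95% counting interval; the dashed line is a log2 fold change of 1. The highest 12 are all 1000 bp or less, and 10 intervals lie wholly above the line.

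The strongest gene-dense peaks were short, and 4 of the 9 above a log2 fold change of 1.5 lay on chromosome 19. All coordinates are in hg19, as in the list, and no gene was assigned to them because no hg19 annotation was used here. The highest fold was at chr19:19627001-19627200, a single step of 200 bp, where 37 IP and 15 input reads gave 2.13 on the log2 scale (1.23 to 3.11, 95% counting interval). Next came chr19:1605201-1605600, with 1.75 (1.05 to 2.48) from 51 IP and 27 input reads. Both rest on few reads, and their intervals are wide. The peak at chr22:24236401-24237200 had 1.71 (1.40 to 2.04) from 236 IP and 128 input reads, and thus the highest lower bound of the gene-dense peaks. Another peak on the same chromosome, chr22:22735001-22735800, had 1.56 (1.27 to 1.85) from 261 IP and 158 input reads. These were 2 of the 3 peaks of chromosome 22.

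Further peaks above 1.5 lay on chromosomes 19, 16 and 20. At chr19:18699401-18700000 the log2 fold change was 1.62 from 45 IP and 26 input reads, and at chr19:2269401-2269800 it was 1.60 from 68 IP and 40 input reads. On chromosome 16, chr16:76269401-76269600 had 1.57 (1.22 to 1.94) from 174 IP reads within 200 bp, or 870 IP reads per kb, against 520 input reads per kb, the highest densities of any gene-dense peak in both. The other was chr16:30077001-30077600, with 1.504 (0.84 to 2.19) from 51 IP and 32 input reads. On chromosome 20, chr20:18485201-18485800 had 1.51 (1.184 to 1.83) from 209 IP and 131 input reads. Chromosome 17 had no island above 1.5. Its highest, chr17:17286201-17287600, had 1.41 (1.20 to 1.63) from 454 IP and 304 input reads, the most reads of any gene-dense peak. For comparison, the highest folds on the gene-poor chromosomes were 1.58 at chr4:85999401-86001000 from 74 IP and 44 input reads, 1.55 at chr18:29992601-29993200 from 79 and 48, and 1.45 at chr13:56298601-56300400 from 80 and 52.

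Gene-dense peaks also stood on more input. Their median was 61.4 input reads per kb, against 31.8 for the gene-poor peaks and 41.8 for all gene-dense islands. The excess lay in the narrow ones, with a median of 108 input reads per kb in the 28 narrow peaks and 34.6 in the 23 wider peaks. The narrow peaks had the higher median fold, 1.34 against 1.09, but fewer reads, with medians of 67 IP and 45.5 input reads. A further 11 narrow gene-dense islands were not peaks, and their median was 195 input reads per kb. The 4 narrow gene-poor peaks had 115 input reads per kb, close to the gene-dense narrow ones. High local input moved with narrow width on both kinds of chromosome, and its part in the fold was not tested.

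**Figure D4:**
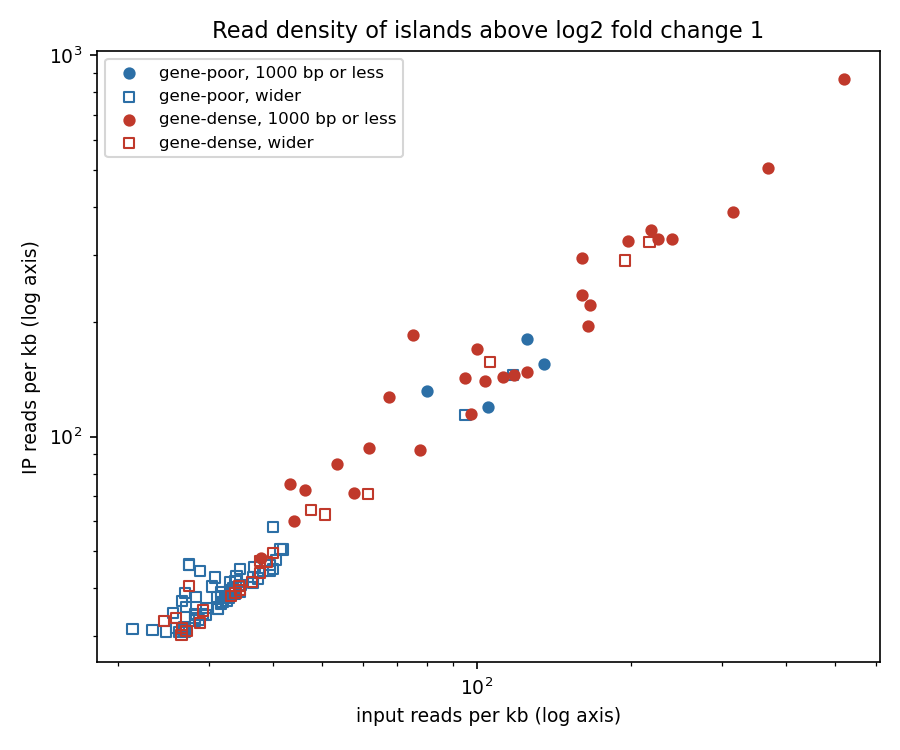
Input reads per kb and IP reads per kb (both log axes) of the 51 gene-dense peaks (red) and 63 gene-poor peaks (blue), with filled circles for peaks of 1000 bp or less and open squares for wider ones. The filled red points reach 520 input and 870 IP reads per kb, while most gene-poor peaks lie near their medians of 31.8 and 39.1.

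At the other end of the scale were broad, deep islands of low fold. Islands of 15 kb or more numbered 35 on the gene-dense chromosomes (2.01%), 21 of them on chromosome 20, and 51 on the gene-poor ones (1.08%). The share over the whole list was 2.20%, so the gene-dense share was close to the background and the gene-poor one lay below it. The 35 had a median log2 fold change of 0.18 and a median of 80.2 input reads per kb. The widest of all was chr20:21791401-21863000, with 71600 bp and a log2 fold change of 0.09 from 3447 IP and 5771 input reads. On chromosome 16 the widest was chr16:46385801-46456600, with 70800 bp and 0.31, for which the reads could not be worked out because its −log10 p is listed at 50. The widest on chromosome 17, chr17:36348601-36406800, had 58200 bp and 0.07, and that on chromosome 19, chr19:24520801-24576800, had 56000 bp and 0.22.

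A few islands held many of the reads. Among islands with known read numbers, 28 gene-dense islands with over 1000 IP reads held 22.8% of the IP reads in gene-dense islands, and 7 such islands held 9.12% on the gene-poor chromosomes. Over the whole list 134 such islands held 7.98%, and on chromosome 18 alone 2 held 76.0%. The gene-poor chr4:49130401-49162400 has no known reads and is left out. The deepest of the gene-dense islands was probably outside the count of 28: chr19:27731801-27741600, with 9800 bp, had a log2 fold change of 0.32 and a −log10 p of 322.5, too near the smallest number a computer stores to give exact reads, which corresponds to about 31500 IP reads. With it, 29 gene-dense islands held 29% of the IP reads in gene-dense islands. The depth of chr16:46385801-46456600 is unknown. Among the gene-dense islands with known reads, chr17:22243201-22263000 had the most IP reads, with 18964, beside 25571 input reads and 0.40 (0.37 to 0.43) on the log2 fold scale. On the other chromosomes the deepest of those with known reads were chr16:33960401-33980000 with 5964 IP reads, chr19:27836601-27890400 with 3906, chr20:26303001-26319600 with 3699 and chr22:16847801-16867000 with 1393, at log2 fold changes of 0.19, 0.20, 0.34 and 0.30. The last was also the widest island of chromosome 22, at 19200 bp. Each had more input than IP reads, which also held for the medians over all gene-dense islands, 186 and 142. Their input density was between 105 and 474 reads per kb outside chromosome 17, where it was 1291. The pooled fold of a chromosome gives these islands much weight: on chromosome 16 it was 0.31 with 37.1% of the known IP reads in 6 such islands, below the median of 0.44 over its islands, and the 70800 bp island is in neither the fold nor the share.

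Along the chromosomes the islands were unevenly placed. The 5 Mb bin with most islands was from 50 to 55 Mb on chromosome 20, with 141 or 20.5% of its islands, and from 65 to 70 Mb on chromosome 17, with 111 or 17.02%. On chromosomes 16 and 19 it was from 30 to 35 Mb, with 40 islands (27.4%) and 43 islands (19.03%), and on chromosome 22 from 15 to 20 Mb with 8 (29.6%). None of the fullest bins of chromosomes 19, 20 and 22 held a peak, and those of 16 and 17 held 2 each. The longest stretch between neighbouring islands was 11.1 Mb on chromosome 16, from 35285600 to 46385801. It was 7.46 Mb on chromosome 17, from 7145800 to 14608601, and 5.86 Mb on chromosome 19, from 5903800 to 11763401. Chromosome 22 had 3.90 Mb from 32436000 to 36337601, and chromosome 20 had 3.10 Mb from 26319600 to 29419801. Parts of the build without sequence were not marked here. A stretch without islands is therefore not always one where an island could have been called.

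Peaks made up the largest share of gene-dense islands where islands were few. In 5 Mb bins of 1 to 19 islands, 33 of 290 gene-dense islands were peaks (11.4%) and 25 were narrow. This share was 8 of 302 (2.65%) in bins of 20 to 49 islands and 10 of 1147 (0.872%) in bins of 50 or more. The gene-poor chromosomes had the same order, with 9 of 135 (6.67%), 10 of 345 (2.90%) and 44 of 4227 (1.04%), but 4227 of their 4707 islands lay in bins of 50 or more. The nearest other island was a median of 113 kb away from a gene-dense peak and 25.2 kb from a gene-poor peak, and it was over 100 kb away for 28 of the 51 and 11 of the 63. For all islands the median distance was 18.8 and 12.8 kb, gene-dense and gene-poor. Over 100 kb from the nearest were 258 of all 1739 gene-dense islands (14.8%) and 255 of 4707 gene-poor ones (5.42%). The groups thus differed in this share over all their islands too. These counts are descriptions, since peaks and bins come from the same list. The number of bins also differed between the classes, and on chromosomes 16, 19 and 22 no bin held 50 or more islands. Peaks per bin were not compared, so the falling share does not show that peaks themselves gathered in bins of few islands.

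**Figure D5:**
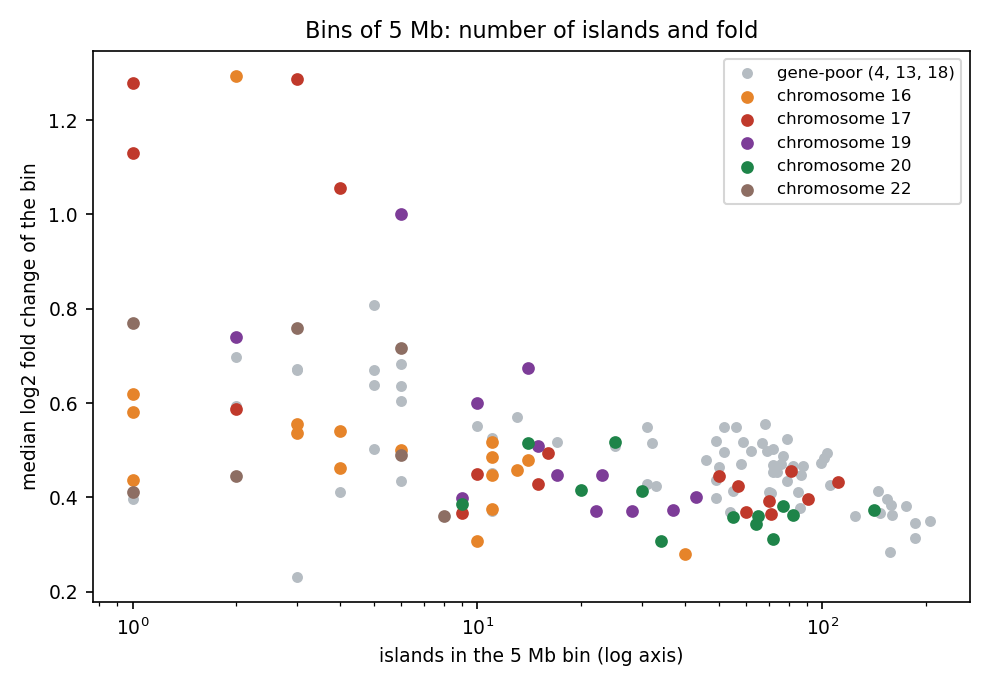
Number of islands in each 5 Mb bin that held any (log axis) and the median log2 fold change of those islands, for the gene-dense chromosomes in colour and the gene-poor chromosomes in grey. Bins of few islands spread up to medians above 1, on chromosomes 16, 17 and 19, while bins of 50 or more islands reach 0.56 at most.

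The start of chromosomes 17 and 19, picked after the values were seen, had few islands and many peaks among them. The first 20 Mb of chromosome 17 held 9 islands, of which 7 were peaks (77.8%) and 6 were narrow, with a median log2 fold change of 1.26 and 104 input reads per kb. The rest of chromosome 17 held 643 islands, of which 9 were peaks (1.40%) and 1 was narrow, with a median of 0.41 and 41.3 input reads per kb. On chromosome 19 the first 20 Mb held 32 islands with 12 peaks (37.5%) and a median of 0.68, and the rest held 194 with 6 peaks (3.09%) and a median of 0.40. Within the first of these, 3 peaks at chr19:18682401-18682800, chr19:18684001-18684200 and chr19:18699401-18700000 lay close together, with log2 fold changes of 1.42, 1.38 and 1.62. Few islands did not always go with many peaks. The first 20 Mb of chromosome 16 held as few as 8 islands but 0 peaks and 0 narrow islands, with a median of 0.57. Chromosome 20 held 2 peaks among 89 islands in its first 20 Mb (2.25%) and 3 among 599 in the rest (0.501%).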

How the data were processed

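Per the submitters' processing notes, the build was hg19 and the tools were SICER (0.0.52), BWA (0.7.17.1), ChIPseeker (1.18.0), Trimmomatic (0.36.5) and SAMtools (1.3.1). Figure legends of the study name epic2, an implementation of SICER, and an FDR below 0.05. The list is 1 for all libraries, and how they were combined is not given in the sources used here. The deposited list gives for each island the authors' score, which is 100 times the fold column without its decimals, the log2 fold change itself, and −log10 p and −log10 FDR as deposited. Starts were converted to count from 1.

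IP and input reads were recovered by inverting the Poisson formula of the caller, with 1 scale factor of 0.5618. Input reads were whole within 0.02 in 32750 of 32760 islands, and the 10 others have no reads here. The formula and the permutation test were tested on simulated data. The intervals were not. Counting intervals are Clopper-Pearson at 95%. Medians per chromosome were compared by two-sided exact permutation over 8 chromosomes (56 arrangements) with Benjamini-Hochberg adjustment over 8 measures; 2 more were added after the data were seen. Chromosome lengths and RefSeq genes are GRCh38 totals, and no position was carried between builds.

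The members, comparison chromosomes and measures were chosen with earlier results of these data known. Named islands are, per gene-dense chromosome, the highest in fold, the widest and the one with most IP reads, each island above a log2 fold change of 1.5, the fullest 5 Mb bin and the longest stretch between islands, with the highest in fold for each gene-poor chromosome; 2 of the neighbouring peaks on chromosome 19 fall outside this rule and were named after their values were seen. Rabbit IgG precipitates were not analysed here. Scripts ran in Python 3.11.15 with scipy 1.17.1, pandas 2.3.3, numpy 2.4.6 and, for plots, matplotlib 3.10.9.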

Additional observations from a re-analysis of the deposited data

How the results depend on the processing

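All values here are differences of chromosome means, gene-dense minus gene-poor unless another comparison is named. The 17 other autosomes are all those outside the gene-dense set. They include the gene-poor chromosomes 4, 13 and 18, so they are not a separate comparison set. Beside leaving out a chromosome, 42 alternatives kept direction and side of the threshold, 8 turned direction and 2 passed the threshold. The median log2 fold change became 0.0056 at FDR 0.001, 0.0041 against the 17 other autosomes and 0.034 in islands of 1200 to 3000 bp. In that width range input reads per kb became -6.93 and the percent of islands above a log2 fold change of 1 became -2.59. Peaks per Mb became -0.025 against the other autosomes, -0.031 in that width range and -0.286 at a log2 fold change above 0.8. Against the 17 other autosomes, narrow islands per Mb differed by 0.0766 (exact permutation p = 0.000835; 0.00418 adjusted over 10 measures) and the percent of peaks that were narrow by 45.9 (p = 7.6e-05, exact; 0.00076 adjusted), both chosen after the data were seen. The adjustment does not cover that choice, so neither p is independent evidence. A width limit of 600 bp was not tried against the 17 other autosomes. Against the gene-poor chromosomes these differences, 0.0866 and 45.9, became 0.0430 (exact p = 0.214) and 14.96 (exact p = 0.321) with a width limit of 600 bp. Leaving out each chromosome in turn gave -11.4 to -1.57 islands per Mb, -733 to -233 bp in median width, -10.95 to -0.70 IP reads, 0.982 to 5.64 input reads per kb, 0.316 to 4.45 percentage points of peaks, 0.897 to 5.60 of narrow islands, 0.0560 to 0.103 narrow islands per Mb and 39.8 to 55.3 percentage points of narrow peaks. The median log2 fold change ran from -0.11 to 0.0031, turning without chromosome 18, and peaks per Mb from -0.0328 to 0.0529, turning without 17, 19, 13 or 18. The causes were not tested. No paired analysis was possible because islands carry 1 value over all libraries, so that no replicate could be left out either. The fewest IP reads in a gene-dense island were 37, so the folds of the shortest islands are the least certain.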
